A study of Mus musculus with 6 samples.

Results

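The transcripts examined here were those of 6 ligands of the epidermal growth factor (EGF) family, Egf, Areg, Ereg, Tgfa, Hbegf and Btc, and of the 4 receptors of the ERBB family, Egfr, Erbb2, Erbb3 and Erbb4. The members were taken by gene symbol from a table of 24908 genes and all 10 were found there. Bulk RNA-seq covered the anterior (AP), dorsolateral (DLP) and ventral (VP) lobes of the prostate of 1 wild-type (WT) male and of 1 Hi-MYC male (MYC), which is heterozygous for human c-MYC under an androgen-responsive probasin promoter active in prostate epithelium. Both mice were 12 weeks old, of strain FVB and fed the same purified diet, and the WT mouse was a littermate of the MYC mouse. Each lobe of each mouse gave 1 library, 6 in all, so that no value has a replicate, no p-value was computed, and genotype and individual mouse cannot be told apart.

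EGF ligands are made as membrane-anchored precursors that proteases of the ADAM family cut to release the active growth factor. A ligand joins receptors into dimers, whose kinases start the RAS-ERK and PI3K-AKT cascades. EGF, amphiregulin (Areg) and TGF-alpha (Tgfa) bind EGFR, whereas HB-EGF (Hbegf), epiregulin (Ereg) and betacellulin (Btc) bind EGFR and ERBB4. ERBB2 has no known ligand and acts as a dimer partner, and ERBB3 binds neuregulins, has little kinase activity of its own and recruits PI3K. In the prostate these signals act between epithelium and stroma and within the epithelium.

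Values are FPKM, fragments scaled to transcript length in kilobases and to the mapped reads of the library, which allow levels of different genes to be compared per length. The libraries held between 25.5 M (WT AP) and 50.2 M (MYC AP) mapped reads, as recovered from the steps in which low FPKM fall, and intervals given below are exact 95% intervals for counting error of reads estimated from FPKM. They do not cover the difference between animals, and PCR copies are not independent molecules. The log2 ratio is that of FPKM + 1, and fold differences are those of FPKM. A gene was called higher or lower at 2-fold or more on the scale of FPKM + 1, among the 12361 genes whose FPKM averaged 1 or more across all libraries. Of the 10 members, 9 were compared in this way. Btc, with a mean of 0.869 FPKM, was not, and Ereg passed mainly through the MYC DLP and MYC VP libraries. The calls of Ereg that involve those libraries follow in part from the filter. Erbb4 (mean 1.40 FPKM) passed only through the VP libraries, the other 4 being below 1 FPKM, so that its calls between VP and the other lobes follow in part from the filter.

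The gene listed as Myc, in which mouse and human reads are not separated, had 230.0 FPKM in WT AP and 230.9 FPKM in MYC AP, 200.6 FPKM in WT DLP against 586.1 in MYC DLP, and 226.4 FPKM in WT VP against 1696 in MYC VP. The library labelled MYC AP thus held no more Myc transcript than WT AP, and comparisons in AP are by label. Luminal keratins Krt8 and Krt18 and basal keratins Krt5 and Krt14 were present in every library. In bulk RNA, fewer cells of a type and less RNA per cell cannot be told apart. MYC AP also held transcripts of seminal vesicle secretion, with 292.5 FPKM of Svs4, which is listed at 0 in the 3 WT libraries and in MYC VP. The cells were dissociated enzymatically before RNA was taken, and immediate early genes were high throughout, with Fos between 860.3 and 1240 FPKM.

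The 250 bases upstream of Egf, Areg and Egfr are shown because these members had the largest log2 ratios between the genotypes, and they differ in base composition. These RefSeq sequences are in the direction of the gene on GRCm38.p6: Areg at chr5:91139349-91139598 (plus strand), Egf at chr3:129755323-129755572 (minus strand) and Egfr at chr11:16751953-16752202 (plus strand). Capitals in Areg mark a cyclic AMP response element (CRE) at positions -61 to -54 and a TATA box at -31 to -26, both counted from the annotated start, and the other sequences hold none of the motifs searched.
Areg: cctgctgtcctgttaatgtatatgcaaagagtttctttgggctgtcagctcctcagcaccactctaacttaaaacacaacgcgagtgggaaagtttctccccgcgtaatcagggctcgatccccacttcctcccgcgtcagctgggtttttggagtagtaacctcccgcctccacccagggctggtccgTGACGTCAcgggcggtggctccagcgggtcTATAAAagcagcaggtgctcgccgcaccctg
Egf: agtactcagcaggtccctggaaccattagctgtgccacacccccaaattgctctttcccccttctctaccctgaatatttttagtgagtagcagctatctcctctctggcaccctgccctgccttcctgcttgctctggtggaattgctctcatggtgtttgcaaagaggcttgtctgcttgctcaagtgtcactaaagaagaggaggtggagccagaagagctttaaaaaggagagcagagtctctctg
Egfr: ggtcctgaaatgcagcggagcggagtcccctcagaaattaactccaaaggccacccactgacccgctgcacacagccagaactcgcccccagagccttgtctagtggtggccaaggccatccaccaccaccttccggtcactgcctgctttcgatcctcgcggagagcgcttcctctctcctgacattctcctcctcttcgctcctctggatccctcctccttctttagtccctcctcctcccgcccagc

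Promoter windows of 300 bases, 250 before and 50 after the start, were found for 7 members (Egf with an additional start, Areg, Btc, Tgfa, Egfr, Erbb2 and Erbb4), and Ereg, Hbegf and Erbb3 had no entry. Both strands were searched for 5 motifs, and Areg was the sole member that held any; its CRE and TATA box did not overlap. The CRE, spelled TGACGTCA, was found in 1.79% of all 32851 windows of this length. The TATA box, spelled TATAAA, was found in 13.6% of them. The E-box, the site of MYC family proteins, is spelled CACGTG and was found in 7.15%. The AP-1 motif is spelled TGACTCA and was found in 5.2%. The full androgen response element was found in 0.00913%. The upstream 250 bases of Egf held no CpG and 50.4% G and C, those of Areg 15 CpG and 57.2%, and those of Egfr 11 CpG and 60.8%, against medians of 6 CpG and 52.4% over all windows. A match describes the letters of the window and was not tested as a binding site.

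Among the ligands, Egf (chromosome 3, 129677574 to 129755322 on GRCm38) showed the largest difference between the genotypes, and of the 3 lobes it was past 2-fold in DLP and VP. Egf had 21.0, 17.1 and 16.2 FPKM in WT AP, DLP and VP, and 23.2, 3.17 and 5.80 FPKM in MYC AP, DLP and VP. The 3 WT libraries and MYC AP thus lay together, and MYC DLP and MYC VP lay apart below them. Egf was 5.39-fold lower in MYC than in WT in DLP (4.89 to 5.97, log2 ratio -2.12) and 2.79-fold lower in VP (2.60 to 3.00, log2 ratio -1.34). In AP it was 1.11-fold higher in MYC (1.05 to 1.16), a difference within 2-fold. The call in DLP held under all 9 alternatives of scaling, pseudocount, filter and reference gene, with log2 ratios between -2.39 and -2.12. In VP it held under 8 of 9 and was lost relative to the basal keratins Krt5, Krt14 and Krt15 (log2 ratio -0.90).

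Areg, which encodes amphiregulin, a ligand of EGFR alone, went the other way in DLP. It had 10.4 FPKM in WT AP, 9.45 in WT DLP and 3.23 in WT VP. In the MYC mouse it had 11.7 FPKM in AP, 28.0 in DLP and 2.56 in VP. MYC DLP was the highest of the 6 libraries, both VP libraries were the lowest, and neither MYC AP from WT AP nor WT AP from WT DLP was resolved by the reads. Areg was 2.96-fold higher in MYC than in WT DLP (2.65 to 3.32, log2 ratio 1.47), whereas the intervals of the fold included 1 in AP (0.964 to 1.29) and in VP (0.613 to 1.02). The call in DLP was lost relative to the basal keratins, with a log2 ratio of 0.998, and held under the other 8 alternatives. In WT the VP level was 2.92-fold below that of DLP (2.44 to 3.54) and 3.23-fold below that of AP (2.65 to 3.97).

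Ereg, which encodes epiregulin, was low in every library and highest in MYC DLP too. It had 0.617, 1.29 and 0.880 FPKM in WT AP, DLP and VP, and 0.299, 3.79 and 1.92 FPKM in MYC AP, DLP and VP, from an estimated 59 to 519 reads. It was above its WT level in MYC DLP and VP and below it in MYC AP. The fold difference in DLP was 2.95 (2.52 to 3.45, log2 ratio 1.07), and in VP it was 2.19 (1.81 to 2.65), which the pseudocount of 1 brought to a log2 ratio of 0.64 and below the call. The call in DLP held under 5 of the 8 alternatives that gave a value, and it was lost with equal sums of FPKM without the 20 highest genes (0.94), relative to the luminal keratins (0.98) and relative to the basal keratins (0.65). Btc, the gene of betacellulin, had 0.659, 0.523 and 0.535 FPKM in WT AP, DLP and VP and 1.36, 1.57 and 0.565 FPKM in MYC AP, DLP and VP. On 44 to 177 estimated reads it was 2.06-fold higher in MYC AP (1.46 to 2.91) and 3.00-fold higher in MYC DLP (2.23 to 4.11) than in WT, with an interval that included 1 in VP (0.730 to 1.51).

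Ereg, Areg and Btc lie on chromosome 5 within a span of 375.5 kb that also holds Epgn, the gene of the EGFR ligand epigen. In the order of the chromosome, Epgn starts at 91027517, Ereg at 91074617, Areg at 91139599 and Btc at 91357261. These neighbours did not move as a block in DLP, where the log2 ratio of MYC against WT was -0.06 for Epgn, 1.07 for Ereg, 1.47 for Areg and 0.76 for Btc. In AP the same 4 genes had log2 ratios of -0.83, -0.32, 0.15 and 0.51. Ereg overlaps the annotated long noncoding RNA Gm19610 in position, and whether reads of the one were counted for the other was not tested.

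Tgfa and Hbegf differed less between the genotypes. Tgfa had 12.9, 10.2 and 4.92 FPKM in WT AP, DLP and VP and 10.6, 11.1 and 3.29 FPKM in MYC AP, DLP and VP, so that both VP libraries lay below all others. The VP was 2.62-fold below the AP in WT (2.40 to 2.86) and 3.23-fold below it in MYC (2.92 to 3.58). Hbegf, the gene of heparin-binding EGF-like growth factor and the most abundant ligand transcript, had 307.3, 168.6 and 209.7 FPKM in WT AP, DLP and VP. It had 206.7, 246.2 and 194.9 FPKM in MYC AP, DLP and VP. Its highest value was 1.82 times its lowest, the narrowest range of the 10 members. MYC was 1.49-fold below WT in AP (1.46 to 1.52), a direction that turned relative to the basal keratins (log2 ratio 0.092), and 1.46-fold above it in DLP (1.43 to 1.49), and the order of WT VP and MYC AP was not resolved by the reads.

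**Figure D1:**
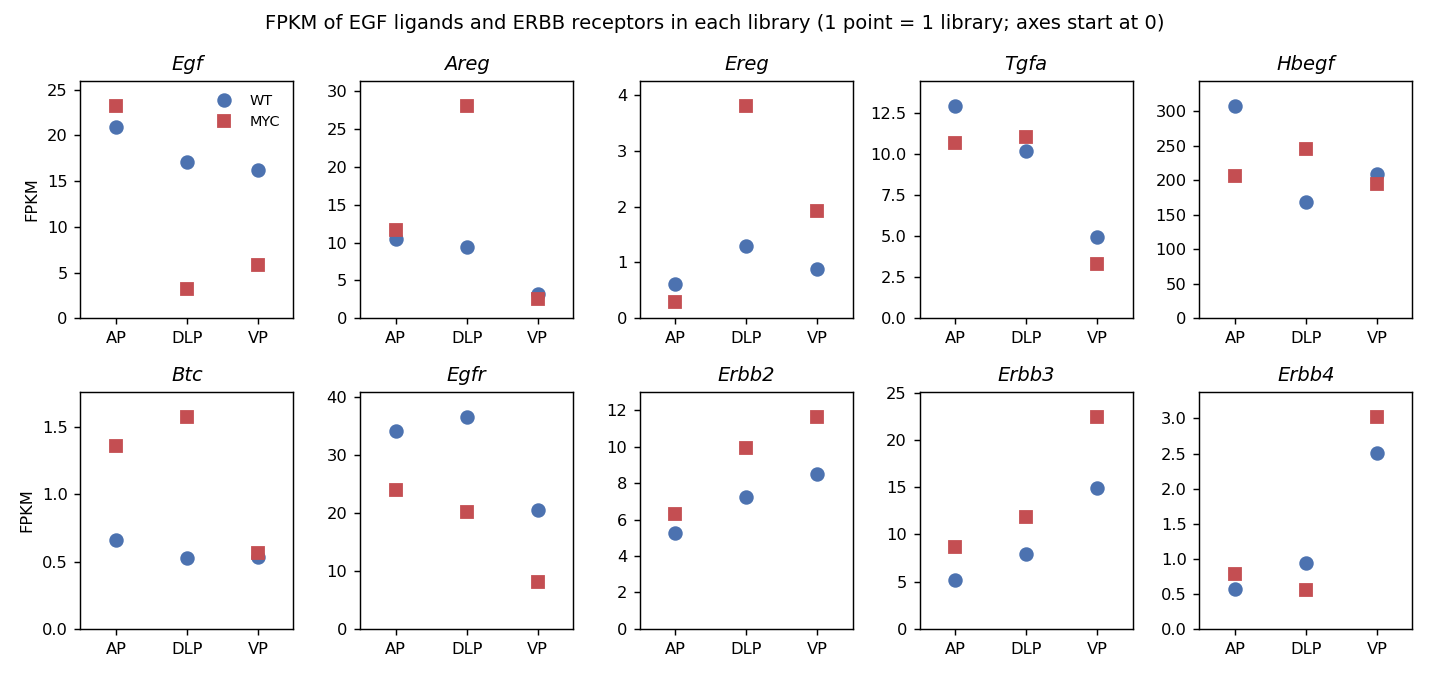
FPKM (vertical axes, each starting at 0) of the 6 ligands and 4 receptors by lobe; circles are WT and squares MYC, 1 library each. Egf is low in MYC DLP (3.17 FPKM) and MYC VP (5.80 FPKM), Areg peaks in MYC DLP (28.0 FPKM), and in each genotype VP has the least Egfr and the most Erbb3 by FPKM (orders that turn relative to basal and luminal keratins, respectively).

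Among the receptors, Egfr (chromosome 11, 16752203 to 16913907) was lower in MYC than in WT in every lobe, and Erbb2 and Erbb3 were higher in every lobe, except that relative to the basal keratins the log2 ratio was 0.146 for Egfr in AP and -0.026 for Erbb2 in DLP. Egfr had 34.2 FPKM in WT AP, 36.5 in WT DLP and 20.4 in WT VP. In the MYC mouse it had 24.0 FPKM in AP, 20.1 in DLP and 8.002 in VP. The MYC library lay below its WT counterpart by 1.42-fold in AP (1.36 to 1.49), 1.81-fold in DLP (1.73 to 1.90) and 2.55-fold in VP (2.40 to 2.73). Only the VP difference passed 2-fold on the scale of FPKM + 1 (log2 ratio -1.25), under 7 of the 9 alternatives as well. It was lost relative to the luminal keratins Krt8 and Krt18 (log2 ratio -0.94) and relative to the basal keratins (-0.78). Under those same references the DLP difference passed 2-fold, with log2 ratios of -1.061 and -1.265. Over all genes compared, AP had a median log2 ratio of 0.126, DLP of 0.035 and VP of 0.042. The levels of Egfr in WT VP and MYC DLP were not resolved from each other.

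Erbb3 (chromosome 10, 128567523 to 128589635) had 5.16, 7.95 and 14.9 FPKM in WT AP, DLP and VP, and 8.72, 11.9 and 22.4 FPKM in MYC AP, DLP and VP. Within each genotype the FPKM went up from AP to DLP to VP, and within each lobe MYC lay above WT, by 1.69-fold in AP (1.56 to 1.83), 1.495-fold in DLP (1.41 to 1.58) and 1.499-fold in VP (1.44 to 1.56). None of these differences reached 2-fold on the deposited scale, but relative to the basal keratins the log2 ratio was 1.161 in AP and 1.098 in VP. Erbb2, the gene of the dimer partner without a ligand, had the same order of lobes by FPKM at a smaller range. It had 5.27, 7.26 and 8.51 FPKM in WT AP, DLP and VP and 6.28, 9.90 and 11.6 FPKM in MYC AP, DLP and VP, which were 1.19-fold (1.09 to 1.31), 1.36-fold (1.27 to 1.46) and 1.36-fold (1.28 to 1.45) above WT. Erbb4 was the lowest receptor. It had 0.572, 0.934 and 2.51 FPKM in WT AP, DLP and VP and 0.788, 0.561 and 3.02 FPKM in MYC AP, DLP and VP. The VP libraries stood above all others, by 2.69-fold over DLP in WT (2.36 to 3.06) and 5.38-fold in MYC (4.49 to 6.46), while the WT AP and MYC DLP levels were not resolved from each other.

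**Figure D2:**
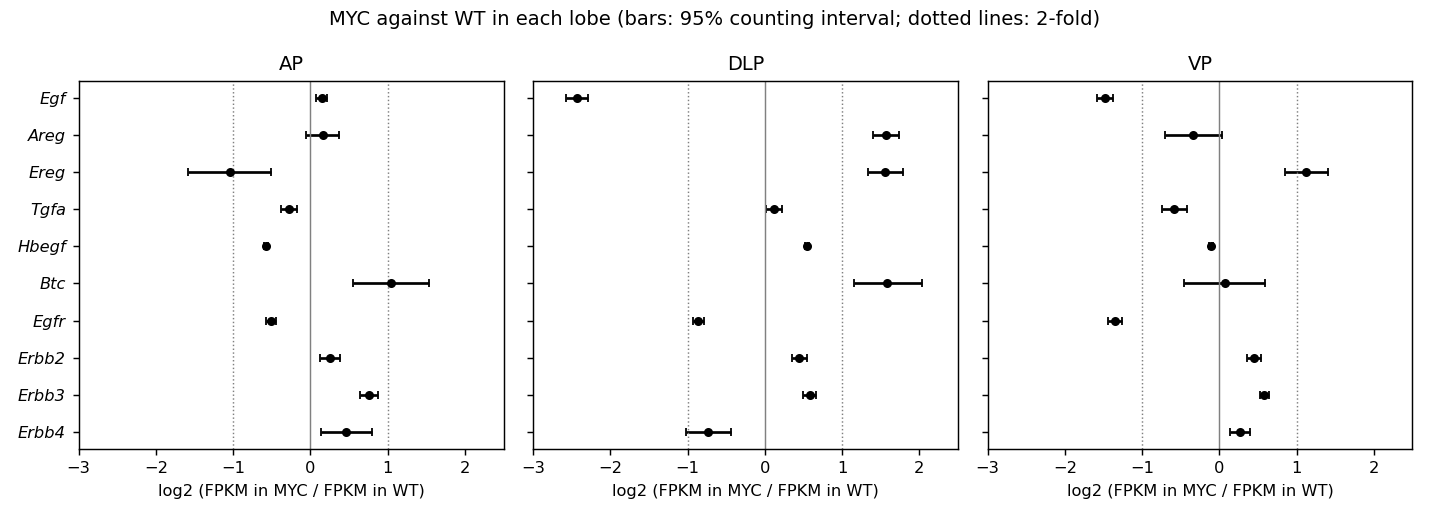
Log2 ratio of FPKM in MYC to FPKM in WT for each member (horizontal axes, no pseudocount) in AP, DLP and VP; points are the ratio of 1 library to 1 library, bars the 95% counting interval, dotted lines 2-fold. Egfr lies left of 0 and Erbb2 and Erbb3 right of 0 in all 3 lobes (relative to basal keratins, Egfr in AP and Erbb2 in DLP change side). The members that differ most in DLP are Egf, Btc, Areg and Ereg.

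Counted over the 9 members compared, none was called in AP, where 2.05% of all genes compared were higher and 0.599% lower in MYC. In DLP, Areg and Ereg were called higher, against 6.46% of all genes, and Egf lower, against 3.39%. The call of Ereg follows in part from the filter. In VP, Egf and Egfr were called lower, against 5.95% of all genes, and no member was higher, against 6.88%. Nothing particular to these genes is read from such small counts.

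Members also differed between the lobes of the same mouse. In WT, 4 of 9 members differed at least 2-fold between VP and AP (18.2% of all genes), 1 between VP and DLP (8.92%) and none between DLP and AP (5.16%). Areg and Tgfa were lower and Erbb3 higher in WT VP than in WT AP, with Erbb4, which passed the filter through VP, higher as well, and Areg was the member that differed between WT VP and WT DLP. In MYC the numbers were 7 between VP and AP (25.1%), 4 between VP and DLP (17.6%) and 3 between DLP and AP (8.03%). The calls of Ereg and Erbb4 among these follow in part from the filter. In MYC VP against MYC AP, Egf, Areg, Tgfa and Egfr were lower, and Ereg, Erbb3 and Erbb4 were higher. The members that differed in MYC DLP against MYC AP were Egf, which was lower, and Areg and Ereg, which were higher. Those of MYC VP against MYC DLP were Areg, Tgfa and Egfr, which were lower, and Erbb4, which was higher. The call of Areg between MYC DLP and MYC AP was lost with equal sums of FPKM (0.971) and relative to the luminal (0.782) and the basal keratins (0.616). On the deposited scale Egf was past 2-fold from AP in DLP and VP of the MYC mouse and in neither of the WT mouse. MYC DLP was 7.32-fold below MYC AP (6.65 to 8.09), whereas WT DLP was 1.23-fold below WT AP (1.16 to 1.30). Areg was 10.96-fold lower in MYC VP than in MYC DLP (8.96 to 13.5, log2 ratio -3.03). Ereg was 12.7-fold higher in MYC DLP than in MYC AP (9.69 to 16.9), where it had 0.299 FPKM from an estimated 59 reads, and the pseudocount brought the log2 ratio to 1.88. These lobe contrasts depended on the reference gene, since luminal keratins were more abundant in VP and basal keratins less. Relative to Krt8 and Krt18 the log2 ratio of Erbb3 between VP and AP was -0.07 in WT and -0.16 in MYC, in place of 1.37 and 1.27. Relative to the basal keratins the direction turned for Areg and Tgfa between VP and AP in WT (0.024 and 0.293), for Egfr between VP and both other lobes in MYC (0.013 against AP and 0.813 against DLP) and for Tgfa between VP and DLP in MYC (0.394). Differences within 2-fold turned as well, and each of the 9 members compared had at least 1 lobe contrast that turned under one keratin reference or the other. Relative to Krt8 and Krt18 the log2 ratio of Erbb2 between VP and AP was -0.778 in WT and -0.572 in MYC (in place of 0.601 and 0.794) and that of Erbb3 between VP and DLP was -0.60 in WT and -0.154 in MYC. Erbb2 between VP and DLP was -1.162 in WT and -0.762 in MYC under the same reference. Erbb3 between DLP and AP in MYC was -0.004 relative to the luminal and -0.134 relative to the basal keratins, in place of 0.407. For Erbb4, relative to Krt8 and Krt18, VP against DLP in WT was -0.084 in place of 0.86, and VP against AP was within 2-fold (0.257 in WT and 0.242 in MYC). Relative to the basal keratins Egfr in WT VP was above AP (0.941) and DLP (0.33). The log2 ratio of Egf between WT VP and WT AP was -1.853 relative to the luminal and 1.276 relative to the basal keratins, in place of -0.352, and that between MYC VP and MYC AP was -0.379 relative to the basal keratins, in place of -1.83.

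The make-up of the receptor transcripts differed between the libraries, mainly in Egfr and Erbb3. Egfr made up 75.6% of the summed FPKM of the 4 receptors in WT AP, 69.3% in WT DLP and 44.05% in WT VP. In the MYC mouse its share came to 60.3% for AP, 47.4% for DLP and 17.8% for VP. Erbb3 took 11.4%, 15.1% and 32.2% in WT AP, DLP and VP and 21.9%, 28.0% and 49.7% in MYC AP, DLP and VP. The summed FPKM lay between 39.8 (MYC AP) and 52.6 (WT DLP). Erbb3 was thus 0.151 times Egfr in WT AP and 2.80 times Egfr in MYC VP, where Erbb2 also exceeded Egfr (1.45 times).

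Hbegf made up between 81.4% (WT DLP) and 93.2% (MYC VP) of the summed FPKM of the 6 ligands. The RNA was taken after enzymatic dissociation, and the part of that step in the levels of Hbegf and the other ligands was not tested. Among the other 5 ligands, Egf was the most abundant in every library except MYC DLP, with 46.0%, 44.4% and 62.9% in WT AP, DLP and VP, and 49.2% and 41.0% in MYC AP and VP. In MYC DLP it held 6.65%, Tgfa 23.2%, and Areg 58.85%. The summed FPKM of these 5 ligands was nearly equal in MYC DLP (47.6) and MYC AP (47.1), and it was lowest in MYC VP (14.1, against 25.8 in WT VP). Per length, Areg was 8.84 times Egf in MYC DLP and between 0.199 and 0.553 times Egf in the other 5 libraries. Areg has a short transcript, and as a share of the estimated reads of all 6 ligands in MYC DLP Tgfa held 6.21%, Areg 4.41% and Egf 2.03%.

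**Figure D3:**
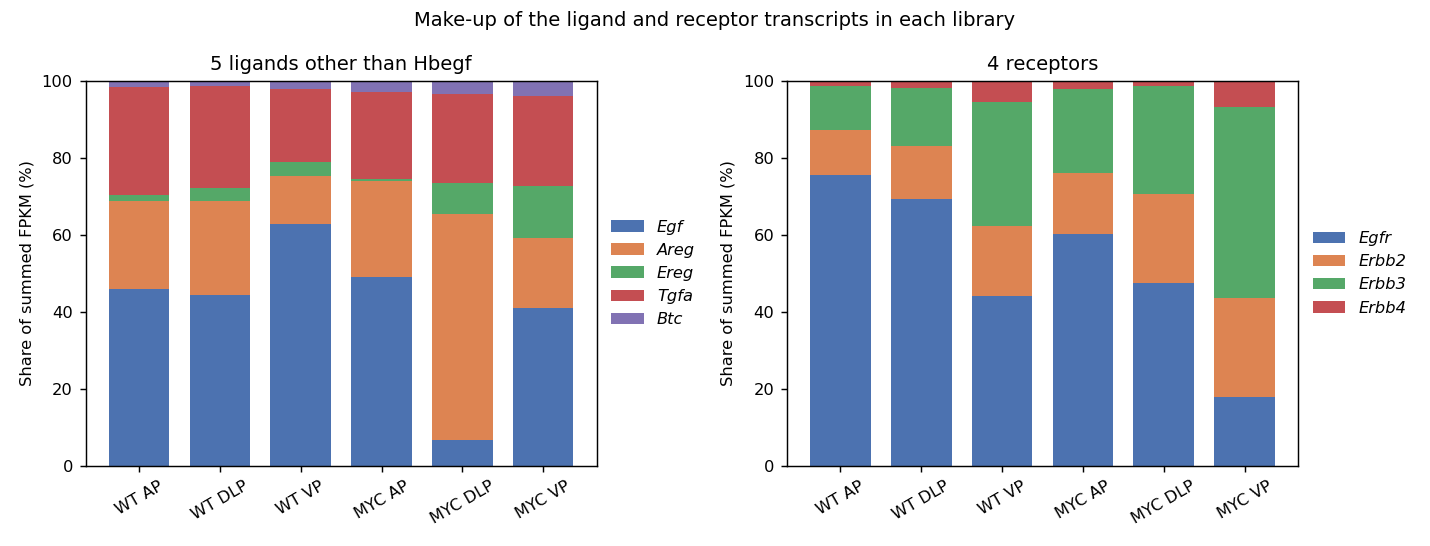
Share (%, vertical axes) of each gene in the summed FPKM of the 5 ligands other than Hbegf (left) and of the 4 receptors (right), 1 bar per library. By FPKM, Areg, not Egf, has the largest share in MYC DLP (58.85% against 6.65%), and the share of Egfr is smallest in MYC VP (17.8%).

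Markers of other cells moved with several of these values, and their part in them was not tested. In DLP, all 8 basal markers (median log2 ratio 0.76, summed FPKM 1029 in WT and 1432 in MYC) and all 10 hematopoietic markers (median 1.73, summed FPKM 97.4 and 407.5) were higher in MYC, beside the higher Areg, Ereg and Btc. Of 8 smooth muscle markers none was higher in MYC DLP (summed FPKM 430.4 in WT and 251.3 in MYC), and of 8 fibroblast markers 3 were (1388 and 773.6), beside the lower Egf and Egfr. In VP, 1 of 8 fibroblast markers was higher in MYC, with a summed FPKM of 702.6 in WT and 215.7 in MYC, beside the lower Egfr. Of the smooth muscle markers 1 of 8 was higher there (summed FPKM 366.2 in WT and 229.8 in MYC), and of the basal markers 1 of 8 (450.6 and 320.1). In AP, 7 of 8 fibroblast and 8 of 8 smooth muscle markers were higher in MYC, and the basal markers summed to 1458 FPKM in WT and 945.9 in MYC. In VP, 9 of 10 hematopoietic markers were higher in MYC, with a summed FPKM of 45.7 in WT and 245.7 in MYC, whereas in AP 4 of 10 were (203.7 and 199.3). The 6 glial markers, listed because Schwann cells carry ERBB3, summed to at most 6.48 FPKM (WT DLP). In VP, 5 of 6 were lower or equal in MYC, and their part in the levels of Erbb3 was not tested. The 8 luminal markers summed to 1886, 1966 and 4113 FPKM in WT AP, DLP and VP and to 2074, 2621 and 3724 FPKM in MYC AP, DLP and VP, with 4, 4 and 1 higher in MYC. Endothelial markers summed to 27.9 to 191.9 FPKM and adipocyte markers to 31.6 to 80.5 FPKM, with the adipocyte gene Plin1 listed at 0 in every library. Seminal vesicle markers summed to 522.1 FPKM in MYC AP and at most 9.17 in the other 5 libraries.

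The genes with the most similar pattern over the 6 libraries, 3 per member by Pearson's r of log2(FPKM + 1), are given as a description, since the 6 libraries come from 2 mice. Egf was most like Smim19 (r = 0.995), Ankrd12 (0.986) and Mtdh (0.986). Areg was most like Capg (0.995), Lrg1 (0.992) and Vdr (0.992), the gene of the vitamin D receptor. Capg, which encodes an actin-capping protein, had 31.5, 29.8 and 16.1 FPKM in WT AP, DLP and VP and 37.5, 60.7 and 12.5 FPKM in MYC AP, DLP and VP. Ereg was most like Gzmb (0.983), Mknk1 (0.981) and Cd7 (0.977), of which granzyme B (Gzmb) and Cd7 are known from cytotoxic lymphocytes, and the FPKM of Gzmb was 9.03 in WT DLP and 24.6 in MYC DLP. Egfr was most like Tiparp (0.999), the filamin gene Flna (0.997) and Zfp503 (0.997), and Flna had 170.3 FPKM in WT AP and 40.1 FPKM in MYC VP. Erbb3 was most like Mrps5 (0.998), a mitochondrial ribosomal protein gene, Erg28 (0.996) and Tkfc (0.995), and Erbb2 like Pradc1 (0.998), Fuk (0.996) and Tmem54 (0.995). Tgfa was most like Tbc1d10a, Arhgef2 and P4ha1 (0.997 to 0.998), and Erbb4 like Adcy9, Pomgnt2 and Nat8f1 (0.993 to 0.996). For Hbegf no gene reached 0.95, and Rnf111, Mark2 and Socs4 came nearest (0.932 to 0.933). Among the members themselves, the 3 highest r were those of Erbb2 and Erbb3 (0.926), Areg and Tgfa (0.861) and Tgfa and Egfr (0.836). The 3 lowest were those of Tgfa and Erbb4 (-0.986), Egf and Ereg (-0.954) and Areg and Erbb4 (-0.921).

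A list of 78 other genes of the pathway, of which 75 were compared, had its most calls in VP on the deposited scale. In AP, 3 were lower and none higher, where 0.599% of all genes compared were lower and 2.05% higher. In DLP, 1 was lower and none higher, against 3.39% and 6.46% of all genes. In VP, 10 were lower and 2 higher, against 5.95% and 6.88% of all genes, with 25 of the list above and 50 below 0 (53.2% of all genes were above 0) and a median log2 ratio of -0.277, against 0.042 over all genes compared. The number lower in VP was sensitive to scaling, being 19 when all libraries were set to equal sums (the median over all genes then being -0.147) and 1 relative to Krt8 and Krt18. Relative to the basal keratins 7 were higher and none lower in AP, against 4 higher and 2 lower in VP, and relative to the luminal keratins 1 was higher and 2 lower in AP, against 3 higher and 1 lower in VP.

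A group of 13 genes was listed as inhibitors of the receptors, which does not establish that role for each of them. In VP, 12 were below 0 and 2 were called lower, against the 53.2% of all genes above 0 and the 5.95% called lower. For Lrig2 (0.871 to 1.11), Lrig3 (0.875 to 1.10) and Socs4 (0.891 to 1.04) the interval of the fold included 1. The count below 0 was not repeated relative to the keratins. Errfi1, which encodes the EGFR inhibitor MIG6, had 548.3 FPKM in WT VP against 251.8 in MYC VP (log2 ratio -1.12), and Lrig1, a membrane protein that lowers ERBB receptor levels, had 4.08 and 1.25 FPKM (-1.18). Both were named after their values were seen, and both calls were lost relative to the luminal keratins (-0.85 and -0.77) and to the basal keratins (-0.58 and -0.97). In AP and DLP none of the 13 was called, and Errfi1 had 896.3 and 776.1 FPKM in WT and MYC AP and 582.3 and 555.5 FPKM in WT and MYC DLP.

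Of the 5 groups, the 18 feedback and target genes of ERK signalling had the lowest median in VP, a log2 ratio of -0.86. Of these genes, 17 were below 0 and 7 were called lower, beside the same shares of all genes. Named by the rule, Phlda1 had 353.7 FPKM in WT VP against 136.4 in MYC VP (-1.37). Fosl1, a transcription factor of the AP-1 family, had 153.2 and 64.5 FPKM (-1.23). Spred1, an inhibitor of RAS-ERK signalling, had 5.64 and 1.86 FPKM (-1.215). Others that were called, named after their values were seen, were Dusp6, the phosphatase of ERK (39.2 and 16.5 FPKM), and Spry2, another feedback inhibitor (20.8 and 8.53 FPKM). The median was below 0 under each of the 9 alternatives, between -1.10 and -0.49. With equal sums 11 genes were called, but 1 gene was called relative to Krt8 and Krt18 and 1 relative to the basal keratins. Of the 16 genes of the dissociation response, which ERK signalling also drives in part, 15 were lower in MYC VP as well (median log2 ratio -0.53, summed FPKM 15000 in WT and 10430 in MYC), and their part in the ERK group was not tested. In AP the ERK group had a median of -0.10 with 2 genes lower, Fosl1 (434.8 and 178.2 FPKM in WT and MYC) and Plaur (392.0 and 189.6 FPKM), the gene of the urokinase receptor. The call of Plaur was lost relative to the luminal (-0.863) and the basal keratins (-0.382), and that of Fosl1 relative to the basal keratins (-0.62). In DLP the ERK group had a median of 0.02 with 1 gene lower, Etv1, an ETS transcription factor (4.14 and 1.55 FPKM).

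None of the 10 ligand-shedding genes compared was called in any lobe. Adam17, the main protease that sheds EGFR ligands, was named after its values were seen and had 7.62, 6.65 and 4.05 FPKM in WT AP, DLP and VP and 8.96, 8.31 and 5.16 FPKM in MYC AP, DLP and VP. Of the 31 adaptors and signal transducers, none was called in AP or DLP. In VP the PI3K subunit genes Pik3r3 (3.77 FPKM in WT and 12.1 in MYC, log2 ratio 1.46) and Pik3cb (5.01 and 11.1 FPKM, 1.015) were higher, the call of Pik3cb being lost under each of the 4 scalings (0.77 to 0.97). Vav2, named after its values were seen, was lower there (3.40 and 1.01 FPKM, -1.13). Its call was lost relative to the luminal (-0.723) and the basal keratins (-0.965). Of the 5 other ligands, Nrg1, the gene of neuregulin-1, which binds ERBB3 and ERBB4, was lower in MYC AP (12.9 FPKM in WT and 3.69 in MYC, log2 ratio -1.57). That call was lost relative to the basal keratins (-0.946). In DLP Nrg1 had 16.1 and 13.3 FPKM and in VP 10.03 and 6.24 FPKM, within 2-fold.

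**Figure D4:**
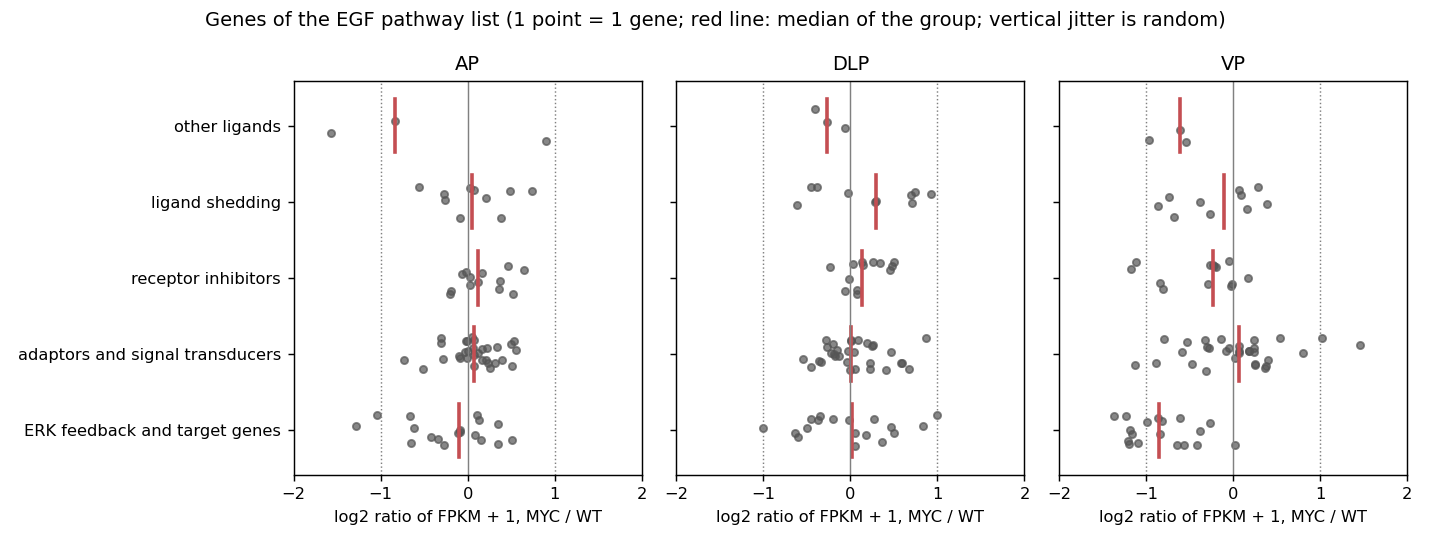
Log2 ratio of FPKM + 1 in MYC against WT (horizontal axes) for the 75 pathway genes compared, by group and lobe; each point is 1 gene, red lines are group medians and dotted lines 2-fold. In VP the median of the ERK feedback and target genes lies at -0.86, with 17 of 18 genes below 0.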

How the data were processed

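Bulk RNA-seq of 6 libraries was used, 1 for each lobe of 1 WT and 1 MYC mouse, with groups taken from the sample labels. The authors mapped single-end, stranded poly(A) reads with STAR and quantified genes with Cufflinks in the VIPER workflow; the submitters' processing notes name bcl2fastq 2.18 and the build mm10, and the annotation is not given in the sources used here. The table is named as counts, but the deposited values were judged to be FPKM from the values themselves, which are not whole numbers and step with gene length, and from the use of Cufflinks by the authors. No header states the unit, so that levels per length rest on this reading, and no count model was run. Mapped reads per library were recovered from single-exon genes longer than 600 bases at under 0.3 FPKM, and between 34.4% and 48.3% of these values lay within 0.03 of a whole read. Reads per gene were estimated from FPKM, this depth and the mean length of GENCODE M1 coding transcripts less a fragment of 200 bases, and gave Clopper-Pearson intervals of ratios. Log2 ratios used a pseudocount of 1, a minimum mean of 1 FPKM and a 2-fold threshold. Gene coordinates and promoters are RefSeq's on GRCm38.p6, matched by symbol. The alternatives were 4 scalings, a pseudocount of 0.1, no filter, a minimum mean of 10 FPKM and 2 keratin references. The pathway and marker lists and the members were chosen with earlier results of these data known. Named were all members, the 3 largest called differences of the pathway list in each direction per lobe, and 3 genes of similar pattern per member. Spink3 of the seminal vesicle list was not found, and the TATA box was added after the sequences were seen. The computations were tested on simulated libraries. The versions were 3.11.15 for Python, 2.4.6 for numpy, 2.3.3 for pandas, 1.17.1 for scipy and 3.10.9 for matplotlib.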

Additional observations from a re-analysis of the deposited data

Results flagged for a closer look

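Egf was close to even between the genotypes in AP (log2 ratio 0.14, beside a median of 0.126 over all genes, and 0.013 with a trimmed mean) but lower in MYC in DLP (-2.12) and in VP (-1.34), so that DLP minus AP was -2.26 and VP minus AP was -1.48. Areg had 1.47 in DLP and -0.25 in VP, a difference of -1.72, and Ereg had -0.32 in AP and 1.07 in DLP, a difference of 1.38. The contrast of lobes could not be tested in any of them, as each value rests on 1 library per lobe and genotype.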

How the results depend on the processing

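No pairing by replicate was possible because each group has 1 library, and for the same reason none could be left out. A fit of genotype over the 3 lobes, with libraries paired by lobe, was not run, since the lobes of a genotype come from 1 mouse and are not replicates. The limits are those of 1 mouse per genotype; Ereg and Btc, on 44 to 519 estimated reads, are the least precise. The reference to basal keratins was chosen after seeing the data. Members called higher in MYC DLP went from 2 to 1 with equal sums without the 20 highest genes, a minimum mean of 10 FPKM or luminal keratins as reference, and to 0 with basal keratins; those called lower there went from 1 to 2 with either keratin reference. In VP, members lower went from 2 to 1 with luminal and 0 with basal keratins, and members higher from 0 to 1 with a pseudocount of 0.1 and 2 with basal keratins. In AP, members higher went from 0 to 1 with basal keratins. The cause of these moves was not tested. Each called gene of the pathway list kept its direction under the alternatives that gave a value.

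Of the pathway list, the number higher in AP was 2 with a pseudocount of 0.1, 1 with luminal and 7 with basal keratins in place of 0, and the number lower was 0 with basal keratins in place of 3. In DLP, the number higher was 3 with a pseudocount of 0.1 in place of 0, and the number lower was 0 at a minimum mean of 10 FPKM and 3 with basal keratins in place of 1. In VP, the number higher was 1 under each of the 4 scalings, 0 at a minimum mean of 10 FPKM and 4 with basal keratins in place of 2. The number lower was 19 with equal sums, 20 with equal sums without the 20 highest genes, 6 at a minimum mean of 10 FPKM, 1 with luminal and 2 with basal keratins in place of 10. A minimum of 10 FPKM leaves fewer genes compared.

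Between lobes, members at 2-fold went from 0 to 1 between WT DLP and WT AP with equal sums, medians of ratios or a trimmed mean. Between WT VP and WT DLP they went from 1 to 3 with a pseudocount of 0.1, 6 with luminal and 5 with basal keratins. At a minimum mean of 10 FPKM they went from 4 to 2 between WT VP and WT AP, from 7 to 4 between MYC VP and MYC AP and from 4 to 2 between MYC VP and MYC DLP. Between MYC VP and MYC AP they were 5 with equal sums or either keratin reference. Between MYC DLP and MYC AP they went from 3 to 2 with equal sums, a minimum mean of 10 FPKM or either keratin reference. Between MYC VP and MYC DLP they were 5 with luminal and 6 with basal keratins, and between WT VP and WT AP 5 with either. Called values that changed sign were, relative to basal keratins, Areg (0.024) and Tgfa (0.29) between WT VP and WT AP, Egfr between MYC VP and MYC AP (0.013) and between MYC VP and MYC DLP (0.81), and Tgfa between MYC VP and MYC DLP (0.39). Relative to luminal keratins, Erbb3 between VP and AP was -0.071 in WT and -0.16 in MYC.

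As a share of estimated reads, Hbegf made up 82.1%, 75.1% and 83.3% of the ligands in WT AP, DLP and VP and 75.2%, 84.35% and 90.04% in MYC AP, DLP and VP. Egfr made up 68.3%, 60.9% and 34.45% of the receptors in WT AP, DLP and VP and 51.0%, 38.5% and 12.6% in MYC AP, DLP and VP.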
